A study of Sus scrofa with 36 samples.

Results

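The genes described here encode the subunits, activators and assembly factors of the proteasome. They are all rows whose symbol consists of PSM, a letter from A to G and a number, which gave 48 of the 20683 genes in the deposited tables. By role they comprised 7 core alpha genes (PSMA1 to PSMA7), 7 constitutive core beta genes (PSMB1 to PSMB7) and 3 immunoproteasome genes (PSMB8, PSMB9 and PSMB10). A further 2 encode tissue-specific core subunits, PSMA8 of the testis and PSMB11 of the thymus. The cap was represented by 9 genes of the base and 8 of the lid. The activators PSME1 to PSME4 and the inhibitor PSMF1 made 5 more, and 7 encode assembly chaperones (PSMG1 to PSMG4, PSMD5, PSMD9 and PSMD10).

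The proteasome is the barrel-shaped protease that degrades proteins tagged with ubiquitin. Rings of alpha subunits gate the barrel and rings of beta subunits hold its active sites, while the cap recognises ubiquitin (lid and base), unfolds the substrate (the ATPases of the base) and removes the tag (the lid). Interferon signalling replaces the catalytic subunits by the inducible forms PSMB8, PSMB9 and PSMB10 and raises the activator subunits PSME1 and PSME2, which favours peptides for presentation by MHC class I. Pluripotent stem cells are known for high proteasome activity, to which the lid gene PSMD11 has been linked.

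The series holds 36 bulk RNA sequencing libraries in 11 groups, all from the pig (Sus scrofa). Fibroblasts (n = 4) were compared with undifferentiated induced pluripotent stem cells (iPSCs) of 3 clonal lines, called transgene-free in the title of the series. They were clone 1 (n = 3, labelled PiPS-EP1 minusPD c4 p11), clone 2 (n = 4, PiPS-EP5 minusPD minusA83 c12 p10) and clone 3 (n = 4, PiPS-EP5 minusPD minusA83 c18 p15). Clone 8, also an iPSC line, gave 3 libraries per group: undifferentiated cells of day 0 taken off their feeder cells, mesendoderm of day 1 (in E8A100ch3), presomitic mesoderm of day 2 (in S1LDN medium) and somite cells of day 3 (in S2LDN medium). From the same line came endothelial cells of day 6, beating cardiomyocytes of day 9 and neural progenitors of day 24. The libraries of an iPSC group all came from 1 clone, so the spread within a group is not a spread over clones or animals. Whether replicates were grown separately is not given in the labels, and each p-value below is therefore set by how far these libraries differ, which may be technical.

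Total estimated counts were 6877298 to 36738189 in fibroblasts, 24314241 to 69879325 in clones 1 to 3 and 1845333 to 9727315 in clone 8. Markers of each label were high in their groups, those of somite cells only weakly, with 2 libraries as exceptions. The library labelled cardiomyocyte replicate 2 had 40.1 TPM (the abundance of a transcript relative to all transcripts, corrected for gene length) summed over 5 cardiomyocyte markers, against 10910 and 10070 in replicates 1 and 3, and 368 TPM of 4 neural progenitor markers against 0.56 and 0.57. The library labelled neural progenitor replicate 1 had 11130 TPM of the cardiomyocyte markers and 0.40 of the neural ones, against 53.8 and 126 TPM and 519 and 488 TPM in replicates 2 and 3. Both libraries stay under their labels here, and results of clone 8 are given with and without both, because they also enter the spread that all clone 8 comparisons share. The 3 somite markers summed to 23.4 to 31.5 TPM on day 3, which overlapped endothelial cells at 20.5 to 25.2 TPM. Endothelial cells still had 573 to 734 TPM of 4 pluripotent markers, against 1931 to 2137 TPM on day 0. Among the fibroblasts, libraries 1 and 2 were deeper than libraries 3 and 4 (at least 26120236 against at most 7508792 counts) and differed from them in several members, such as PSMB5 at 50.8 and 41.9 TPM against 131 and 135 TPM. In bulk RNA, fewer cells of a type and less RNA per cell cannot be told apart.

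Genes for the constitutive proteasome were higher in iPSC clones than in fibroblasts. The 14 constitutive core genes summed to 1826, 1799, 2034 and 1913 TPM in the fibroblast libraries, a mean of 1893 ± 106 (SD, n = 4). Clone 1 had 4647 ± 125 (n = 3), clone 2 had 4933 ± 154 (n = 4) and clone 3 had 5159 ± 126 TPM (n = 4). No clone library was under 4525 TPM and no fibroblast library over 2034, so the groups did not overlap. The 17 base and lid genes behaved likewise, with 1938 ± 239 TPM in fibroblasts and 4738 ± 197, 4864 ± 239 and 5023 ± 265 TPM in clones 1, 2 and 3. As a share of all counts the 48 genes took 0.246 to 0.300% in fibroblasts and 0.879 to 0.966% in clones 1 to 3.

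In the test of the 3 clones' mean against fibroblasts, 46 of the 48 genes had enough counts, and 33 passed at an adjusted p under 0.05 (edgeR's quasi-likelihood test), 29 higher and 4 lower. Of all 14660 genes tested 74.6% passed, 38.6% higher and 35.9% lower, so the share of members that passed was near the background. The median log2 fold change was 1.01 over the members and 0.11 over all genes. With fibroblast libraries 1 and 2 alone, 29 members were higher and 8 lower, and with libraries 3 and 4 alone 31 were higher and 2 lower.

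All 7 core alpha genes rose in the clones, from PSMA6 (log2 fold change 0.45 ± 0.13, SE, adjusted p = 0.00621) to PSMA5 (2.30 ± 0.14, adjusted p = 1.42e-10) and PSMA3 (2.29 ± 0.22, adjusted p = 4.03e-08), genes of the ring that gates the barrel. PSMA5 was at 64.3, 75.8, 94.3 and 102 TPM in fibroblasts and between 329 and 537 TPM in the 11 clone libraries. Of the 7 constitutive beta genes 4 rose. PSMB5, which encodes the chymotrypsin-like active site, rose most (2.24 ± 0.24, adjusted p = 1.34e-07). PSMB4 rose by 1.2, PSMB6, the caspase-like site, by 1.07, and PSMB7, the trypsin-like site, by 0.73. PSMB1, PSMB2 and PSMB3, other subunits of the same ring, did not pass, with values of 0.28, -0.37 and 0.24.

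In the base 8 of 9 genes rose. They were led by PSMD1, a scaffold of the base, at 1.92 ± 0.12 (adjusted p = 1.58e-10) and the ATPase gene PSMC1 at 1.68 ± 0.15 (adjusted p = 2.43e-08). PSMC4, another ATPase of the same ring, was at 0.07 ± 0.14 and did not pass. In the lid 6 of 8 rose, led by PSMD12 at 1.82 ± 0.20 and PSMD14, the enzyme that removes ubiquitin, at 1.67 ± 0.17. PSMD11 rose by 1.58 ± 0.17 (adjusted p = 1.24e-07), from 46.2 ± 10.9 TPM (n = 4) in fibroblasts to 144 ± 23 in clone 1, 162 ± 8 in clone 2 and 156 ± 12 in clone 3. The lid genes PSMD3 and PSMD8 did not pass, at -0.16 and -0.26.

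**Figure D1:**
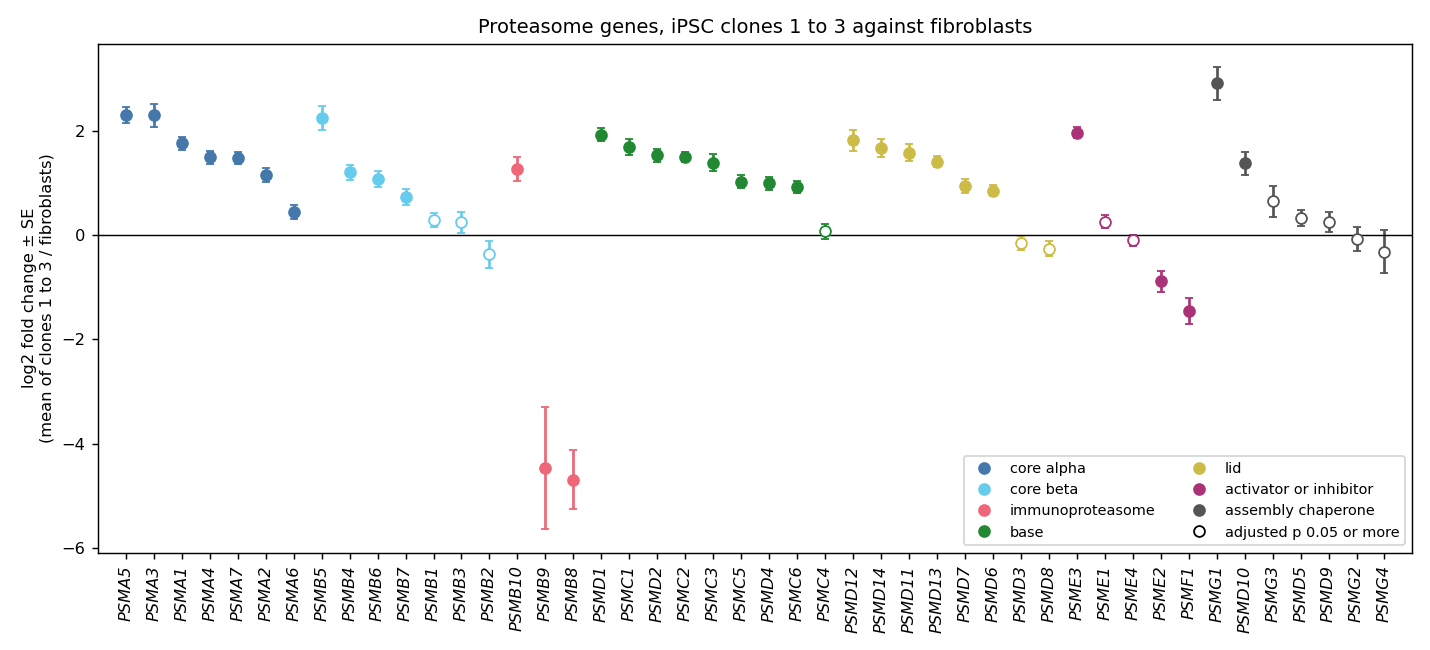
Log2 fold change with its SE (vertical axis) for the 46 tested proteasome genes (horizontal axis, grouped and coloured by role), mean of clones 1 to 3 over fibroblasts. Filled points passed at an adjusted p under 0.05: PSMG1 is highest at 2.90, and PSMB8 and PSMB9 lie far below the rest at -4.68 and -4.47.

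The assembly chaperones gave the member with the largest rise. PSMG1, a chaperone that helps to build the alpha ring, rose by 2.90 ± 0.31 (adjusted p = 1.75e-07), from 89.9 ± 36.6 TPM (n = 4) in fibroblasts. Its level varied widely within the clones, with 539, 850 and 1292 TPM in clone 1, 1120, 1290, 1022 and 464 in clone 2 and 344, 302, 291 and 587 in clone 3. Every clone library still exceeded the highest fibroblast library, at 126 TPM. PSMD10, a chaperone of base assembly, rose by 1.37 ± 0.22 (adjusted p = 1.92e-05), and the other five chaperone genes did not pass, with values from -0.32 (PSMG4) to 0.64 (PSMG3).

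The activators did not move together. PSME3, which forms the nuclear activator PA28 gamma, rose by 1.96 ± 0.11 (adjusted p = 2.64e-11), from 82.5 ± 9.1 TPM to group means between 242 and 273 TPM. PSME1, a subunit of the interferon-inducible activator, was at 0.26 ± 0.12 and did not pass (adjusted p = 0.0618). It did pass in the test on TPM (limma on log2(TPM + 1), 0.32, adjusted p = 0.00639), with no filter (0.34, adjusted p = 0.0262) and without clone 1 replicate 3 or clone 3 replicate 4 (0.29 each, adjusted p = 0.0398 and 0.0311). PSME2, the other subunit of that activator, fell by 0.88 (SE 0.20, adjusted p = 0.000713), and PSMF1, an inhibitor of the core, fell by 1.45 (SE 0.25, adjusted p = 4.07e-05). Both of these calls were lost with fibroblast libraries 3 and 4 alone, where PSME2 was at -0.46 (adjusted p = 0.0845) and PSMF1 at -0.45 (adjusted p = 0.0688). PSMF1 stood at 89.6, 65.4, 40.1 and 23.4 TPM in the fibroblasts, and library 4 lay within the 17.8 to 28.1 TPM of the clones.

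The inducible catalytic genes PSMB8 and PSMB9 were low in all of these groups. PSMB8, the inducible form of PSMB5, was at 7.25, 5.86, 10.98 and 16.4 TPM in fibroblasts and at 0 to 0.84 TPM in the 11 libraries of clones 1 to 3. The fitted log2 fold change was -4.68 (SE 0.56, adjusted p = 6.38e-07). Summed counts were 293 in fibroblasts and 99 in the clones, a ratio, each over its libraries' total counts, of 0.0644 with an exact 95% interval of 0.0508 to 0.0812, which covers counting error only. PSMB8 was 10.8 ± 2.2% (SD, n = 4) of the summed TPM of PSMB8 and PSMB5 in fibroblasts, and 0.083 ± 0.096%, 0.087 ± 0.024% and 0.108 ± 0.029% in clones 1, 2 and 3. PSMB9, the inducible form of PSMB6, was at 1.54, 1.01, 5.19 and 0.44 TPM in fibroblasts and was listed at 0 in all 3 libraries of clone 1. It was at 0.42, 1.85, 0 and 0.16 TPM in clone 2 and 0.07, 0.37, 0 and 0.15 TPM in clone 3, so that clone 2 replicate 2 lay above 3 of the 4 fibroblast libraries and the groups overlapped. It passed (-4.47, SE 1.17, adjusted p = 0.00281), but with a group at 0 this fitted value depends on the test's prior count, and the counts gave a smaller difference. They were 42 in fibroblasts and 47 in the much deeper clones, a ratio of 0.213 over total counts (exact 95% interval 0.138 to 0.332).

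PSMB10, the inducible form of PSMB7, went the other way in level. It rose by 1.26 ± 0.23 (adjusted p = 8.25e-05), from 6.33, 16.7, 14.1 and 17.01 TPM in fibroblasts to 50.6 ± 8.6 in clone 1, 36.4 ± 2.7 in clone 2 and 20.6 ± 2.6 in clone 3. Clone 3 replicate 3, at 16.9 TPM, lay below the highest fibroblast library, and the libraries of clones 1 and 2 lay above all of them. The genes named in the immunoproteasome list therefore did not share a direction in level. PSMB10 was 5.75 ± 2.66% (SD, n = 4) of the summed TPM of PSMB10 and PSMB7 in fibroblasts. In clones 1, 2 and 3 it was 12.5 ± 3.8%, 7.40 ± 0.66% and 4.63 ± 0.86%. By this share only clone 1 lay outside the fibroblast range of 2.48 to 8.90%. PTPRC, the marker of white blood cells, was listed at 0 in all 4 fibroblast libraries and at 0.83 to 1.87 TPM in the clones, and 5 white blood cell markers summed to 71.4 to 75.9 TPM in fibroblasts and 53.1 to 110 in clones 1 to 3.

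**Figure D2:**
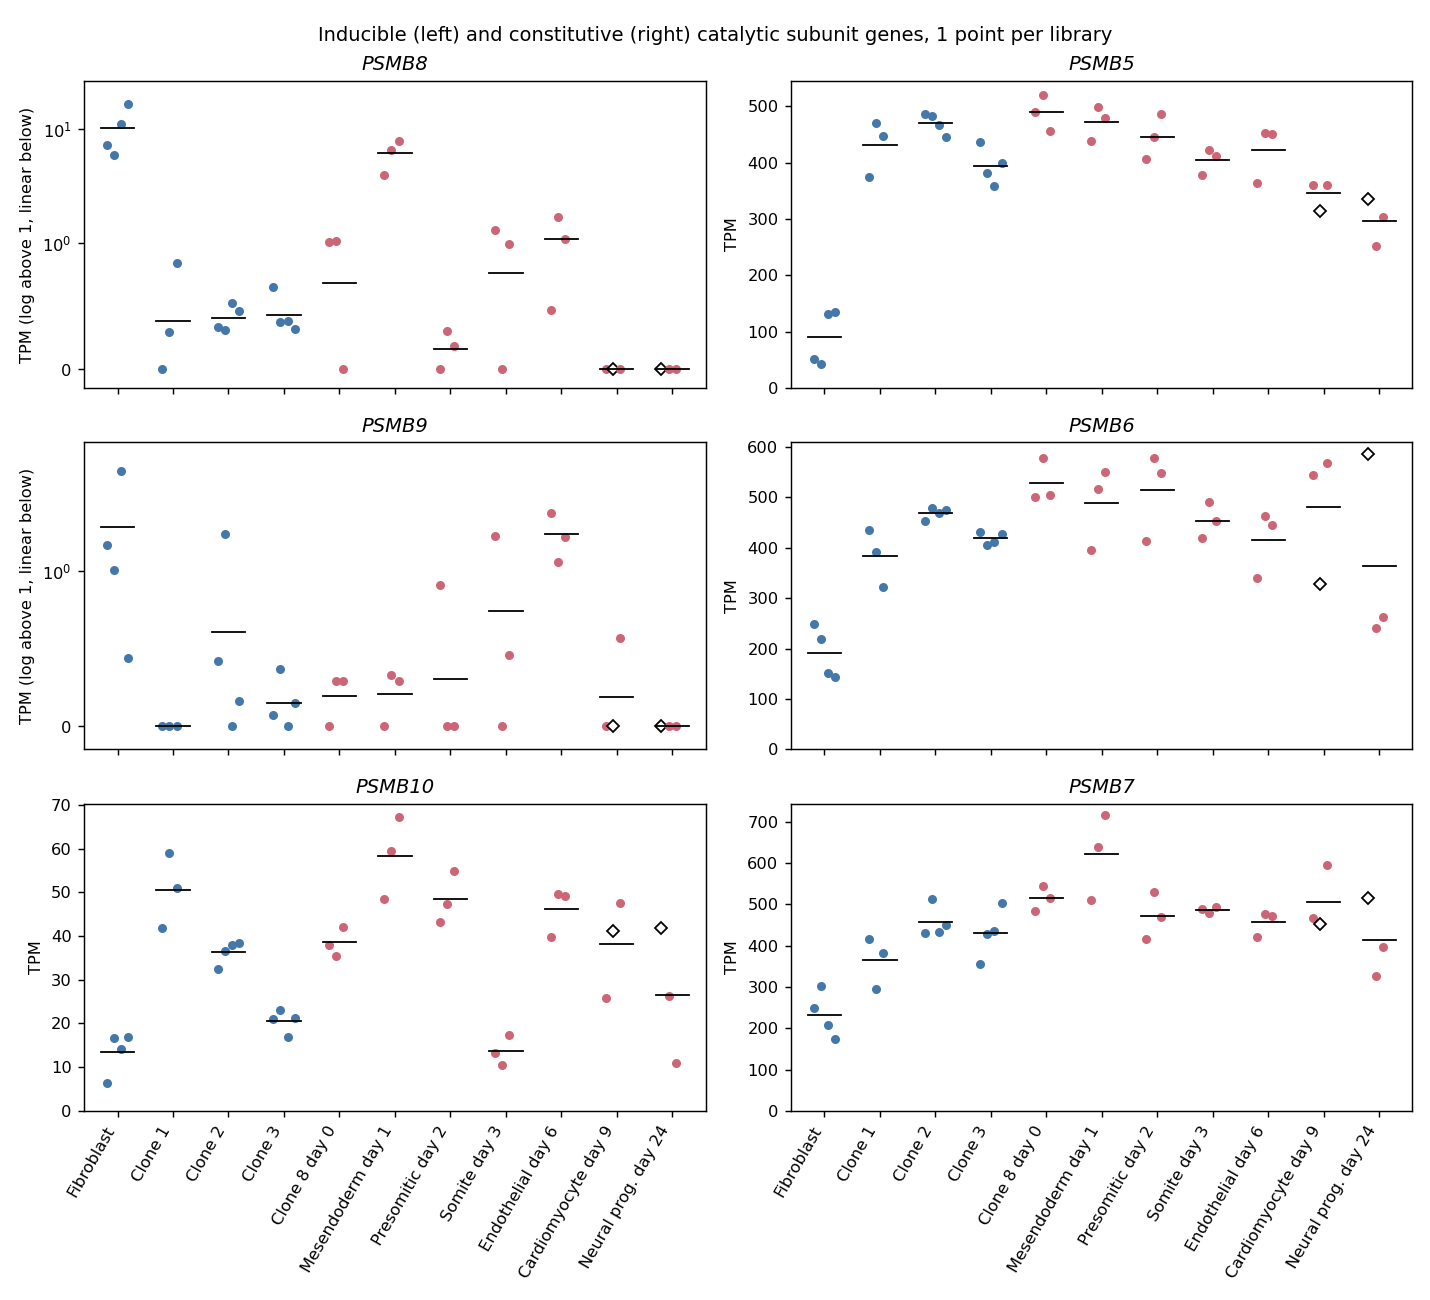
Level in TPM (vertical axis) of the inducible catalytic genes (left) and the constitutive gene each replaces (right) in every library of the 11 groups (horizontal axis). Bars are group means, blue marks fibroblasts and clones 1 to 3, red marks clone 8, and white diamonds mark the 2 libraries that go against their labels; PSMB8 and PSMB9 are on a scale that is logarithmic above 1 TPM. PSMB8 is at 5.86 to 16.4 TPM in fibroblasts and 3.96 to 7.83 TPM on day 1, and at most 1.68 TPM in every other library.

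Other genes of these pathways were read for comparison. All 12 tested interferon signalling and response genes fell, with a median log2 fold change of -5.63, among them IRF1, a transcription factor of the interferon response (-1.12, adjusted p = 0.00298). Of 9 antigen processing genes 6 fell and 3 rose. TAP1, which pumps peptides into the endoplasmic reticulum, fell by 2.67 and B2M, the light chain of MHC class I, by 3.15, while the chaperones CALR, CANX and PDIA3 rose by 1.48, 1.28 and 0.50. The 23 tested partners of the proteasome had no common direction, with 7 higher, 10 lower and a median of -0.20. Of all genes tested 38.6% were higher and 35.9% lower, so the share of partners that passed was near the background. NFE2L1, which raises proteasome genes when the enzyme is inhibited, fell by 1.504 (adjusted p = 1.19e-10) and NFE2L2, a regulator of the oxidative stress response, by 2.03, while their relative NFE2L3 rose by 7.82 (adjusted p = 4.89e-13), from at most 0.31 TPM in fibroblasts to at least 30.7 TPM. VCP, the segregase that delivers substrates, rose by 1.37.

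Between the clones few members passed, in shares near or below the background. Of 46 members 2 passed between clones 1 and 2 (9.31% of all genes). Both were activators lower in clone 1: PSME2 at -1.12 ± 0.28 (adjusted p = 0.0205) and PSME4, the activator PA200, at -0.56 ± 0.14 (adjusted p = 0.0193). PSME2 stood at 32.7, 24.0 and 36.3 TPM in clone 1 and 65.6 to 83.0 TPM in clone 2. The PSME2 call was lost without clone 1 replicate 3 (-0.97, adjusted p = 0.0791) or clone 2 replicate 4 (-1.05, adjusted p = 0.0523). The PSME4 call was lost without clone 1 replicate 2 (-0.50, adjusted p = 0.0743), clone 1 replicate 3 (-0.51, adjusted p = 0.0728) or clone 2 replicate 3 (-0.52, adjusted p = 0.0591). Without clone 1 replicate 3 no member passed, and without clone 1 replicate 4 there were 5. RLE scaling of the libraries gave 1 member higher and 2 lower, DESeq2, another count model, gave 3 of each, and the test on TPM gave 0 higher and 5 lower. Of all genes 1386, 2247 and 1792 passed in these fits, against 1365 in the main fit.

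Between clones 1 and 3, 4 members passed (6.7% of all genes). PSMB10 was higher in clone 1 by 1.29 ± 0.26 (adjusted p = 0.00906), with no overlap of the libraries (41.8 to 59.0 against 16.9 to 23.1 TPM). PSMG1 was higher in clone 1 by 1.23 (adjusted p = 0.0361), and PSMA1 (-0.63, adjusted p = 0.0172) and PSME2 (-1.13, adjusted p = 0.0242) were lower. PSMG1 missed the threshold without clone 1 replicate 3 or 4 or clone 3 replicate 1, 2 or 3 (0.89 to 1.26, adjusted p from 0.0647 to 0.125), PSME2 without clone 1 replicate 2 or 3 or clone 3 replicate 2, 3 or 4 (-1.18 to -0.97, adjusted p from 0.0518 to 0.0872) and PSMA1 without clone 1 replicate 2 or clone 3 replicate 3 or 4 (-0.61 to -0.56, adjusted p from 0.05 to 0.0629). The count was then 2 without clone 1 replicate 2 or 3 or clone 3 replicate 2, and 1 without clone 3 replicate 3. PSMB10 passed whichever library was left out. DESeq2 gave 2 higher and 3 lower, and the test on TPM 1 higher and 2 lower, when 1877 and 1057 of all genes passed. Between clones 2 and 3, 2 members passed (4.22% of all genes). PSMA7 was lower in clone 2 by 0.86 on the log2 scale (fitted -0.86 ± 0.13, adjusted p = 0.000659), at 425, 438, 424 and 430 TPM against 776, 676, 692 and 590 TPM. PSMA7 lies on chromosome 17 and shares its position with LSM14B. PSMG1 was higher in clone 2 (1.18 ± 0.32, adjusted p = 0.0421), a call lost without clone 2 replicate 1, 2 or 3 or clone 3 replicate 1, 2 or 3 (1.02 to 1.18, adjusted p from 0.102 to 0.149), when 1 member was left, while 3 passed without clone 2 replicate 4. The test on TPM gave 2 higher and 1 lower here, when 1052 of all genes passed.

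In clone 8 the constitutive core genes summed to 5509 ± 249 TPM on day 0, 5929 ± 845 on day 1, 4878 ± 388 on day 2 and 4405 ± 215 on day 3 (n = 3 each). Endothelial cells had 4202 ± 221 TPM. All of these lay above the fibroblasts. The days 0 and 1 overlapped, with 5291, 5781 and 5455 TPM against 4985, 6187 and 6614 TPM, and every library of day 3 and of day 6 lay below every library of day 0. When TPM was rescaled by the TMM factors (edgeR's scaling of libraries), day 2 had 5475 TPM and no longer lay below day 0, at 5230 TPM.

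**Figure D3:**
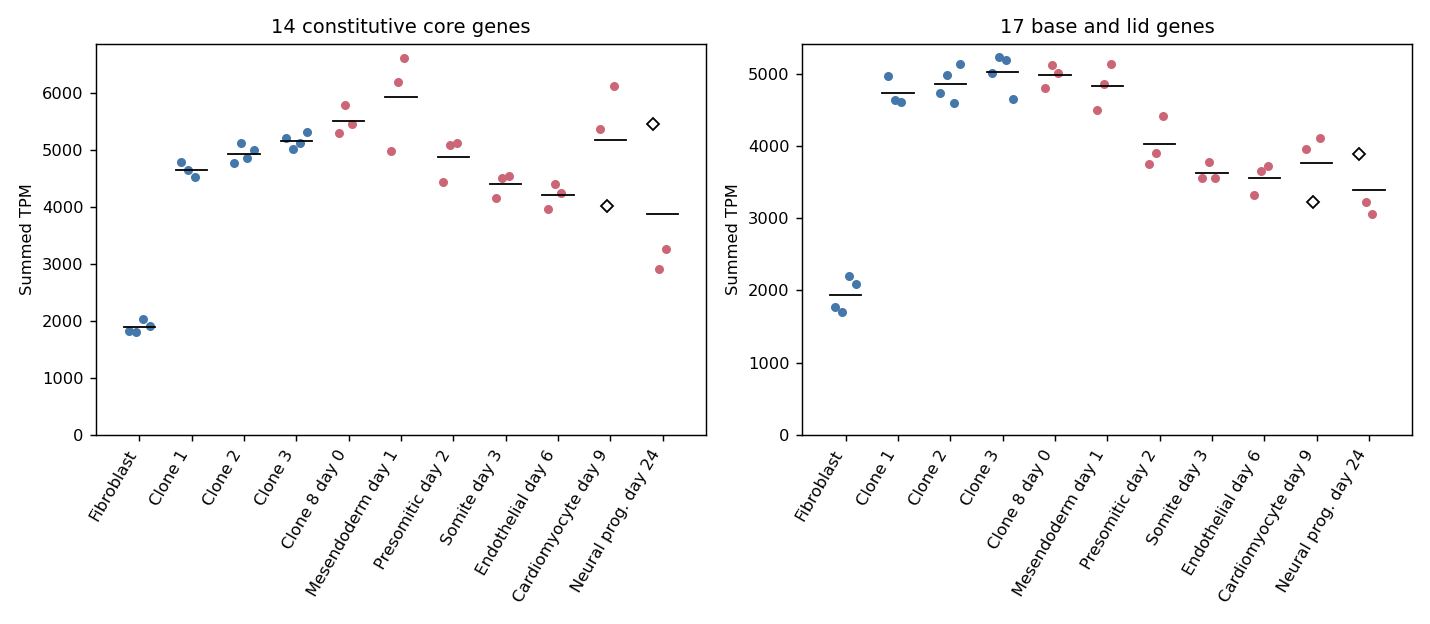
Summed TPM (vertical axes) of the 14 constitutive core genes and of the 17 base and lid genes in every library, by group (horizontal axes). Bars are group means, blue marks fibroblasts and clones 1 to 3, red marks clone 8, and white diamonds mark the 2 libraries that go against their labels. Fibroblasts are lowest at 1799 to 2034 TPM for the core, and the diamonds lie apart from the other 2 libraries of their groups.

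From day 0 to day 1, 2 of the 45 members tested in clone 8 passed, and 12.7% of all genes did. PSMB8 rose by 3.35 ± 1.02 (adjusted p = 0.0476), from 1.02, 1.03 and 0 TPM to 3.96, 6.46 and 7.83 TPM, or from 10 to 83 counts in all (ratio over total counts 9.25, exact 95% interval 4.79 to 20.0). The groups did not overlap, but the call was lost when any of the 6 libraries was left out (2.80 to 3.78, adjusted p from 0.0584 to 0.151) and with no filter (3.36, adjusted p = 0.0696). PSMB8 was then 1.26 ± 0.36% of PSMB8 and PSMB5. PSMD9, a chaperone of base assembly, rose by 0.93 ± 0.17 (adjusted p = 0.00196), from 30.3, 29.8 and 29.7 TPM to 43.7, 53.8 and 47.7 TPM. All 14 constitutive core genes had positive values, up to 0.61 for PSMA1, and none of them passed. On TPM the members' median was -0.05 in place of 0.20 on counts, while the median of all genes moved from -0.02 to -0.18.

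Without the 2 libraries that go against their labels, 13 of 45 members were higher on day 1 and none lower by the same test. Of all 14485 genes 37.4% passed, with 2591 higher and 2824 lower. The 13 members included 4 core alpha genes and 2 core beta genes, and PSMB10 (0.85 ± 0.27, adjusted p = 0.0172) beside PSMB8 (3.34 ± 0.79, adjusted p = 0.00224). The interferon genes were mostly lower on day 1. Of 9 tested with all libraries 7 had negative values (median -0.58), and MX1, an antiviral GTPase, was the 1 that passed (-3.19, adjusted p = 0.012). Of 10 tested without both libraries 3 fell, and none rose in either fit. The 12 genes of the list summed to 99.2 to 112 TPM on day 0 and 39.4 to 48.4 TPM on day 1, with no overlap. The 5 white blood cell markers summed to 18.7 to 28.9 TPM on day 0 and 17.5 to 29.0 TPM on day 1, and PTPRC was at most 0.05 TPM on day 1.

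From day 1 to day 2, 2 of 45 members fell (7.39% of all genes passed). PSMB8 returned to 0, 0.30 and 0.18 TPM, which is 2 counts in all against 83, a ratio over total counts of 0.0291 with an exact 95% interval of 0.00347 to 0.109. Its fitted value was -4.97 (SE 1.203) (adjusted p = 0.0246). That call was lost without day 1 replicate 2 or 3, or without any library of day 2 (-5.49 to -4.52, adjusted p from 0.0606 to 0.095). PSMD11 fell by 1.03 (SE 0.13, adjusted p = 8.61e-05), from 209, 159 and 135 TPM to 92.6, 74.9 and 76.3 TPM. With both libraries left out 8 members were lower and none higher. Of all 14485 genes 23.9% passed, with 1672 lower and 1788 higher. Among the 8 members were PSMA3 (-0.66), PSMA5 (-0.57) and the lid genes PSMD11, PSMD12 and PSMD7. The block on replicate number, which pairs these 2 days, also gave 2 members.

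From day 2 to day 3, 5 of 45 members passed (23.7% of all genes), 1 higher and 4 lower. PSME4 rose by 0.81 ± 0.22 (adjusted p = 0.0123), from 50.6, 39.5 and 40.4 TPM to 108, 83.3 and 77.6 TPM. PSMB10 fell by 2.07 (SE 0.47, adjusted p = 0.00441), from 43.3, 47.3 and 54.9 TPM to 13.2, 10.4 and 17.5 TPM, its lowest level in clone 8 by group mean. PSMD3, PSMD8 and PSMG4 fell by 0.73, 0.88 and 0.92. PSME4 missed the threshold without day 2 replicate 2 or 3 or day 3 replicate 1 (0.73 to 0.80, adjusted p from 0.053 to 0.0651). PSMD3 did so without day 2 replicate 2 or 3 or day 3 replicate 1 or 3, PSMD8 without any of these or day 3 replicate 2, and PSMG4 without any library but day 3 replicate 2 (adjusted p from 0.064 to 0.156 for the 3 genes), and PSMG4 also with no filter (-0.95, adjusted p = 0.0583). PSMB10 passed whichever library was left out (-2.30 to -1.95).

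Without the 2 libraries that go against their labels, 23 of 45 members were lower and 1 higher on day 3. Of all 14485 genes 48.4% passed, with 3338 lower and 3673 higher. The 23 included 7 of 8 lid genes, 4 of 9 base genes, 5 of 14 constitutive core genes and 5 of 7 chaperone genes, with PSMG1 at -1.07 ± 0.18 (adjusted p = 2.63e-05). TAP1, the neighbour of PSMB8 and PSMB9, rose by 2.10 at this step with all libraries (adjusted p = 0.0044) and without both (adjusted p = 1.51e-07), from 5.13 to 27.3 TPM, and PSMB8 was at 1.28, 0 and 0.99 TPM.

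Endothelial cells of day 6 were compared with day 0, and 5 of 45 members passed (19.3% of all genes), 1 higher and 4 lower. PSMD9 rose by 0.87 ± 0.17 (adjusted p = 0.002). PSMD14 (-0.91 ± 0.29, adjusted p = 0.0358), PSMD11 (-0.53 ± 0.13, adjusted p = 0.00637), PSME3 (-0.47 ± 0.14, adjusted p = 0.0273) and PSME4 (-0.78 ± 0.22, adjusted p = 0.0188) fell. PSMD14 missed the threshold when any of the 6 libraries was left out (adjusted p from 0.0758 to 0.119). PSME3 did so without any library but endothelial replicate 1 (adjusted p from 0.0553 to 0.126), and PSME4 without day 0 replicate 2 or 3 or endothelial replicate 1 or 2 (adjusted p from 0.0515 to 0.0676). On TPM 1 member was higher and 18 lower, and PSMD11 was not among those that passed (-0.56, adjusted p = 0.113). Of all 14248 genes 3112 passed on TPM and 2752 on counts.

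PSME1 stood at 201, 197 and 154 TPM in endothelial cells against 76.5, 86.4 and 82.6 TPM on day 0, with no overlap. It did not pass with all libraries (1.197 ± 0.64, adjusted p = 0.216) and passed without the 2 libraries that go against their labels (1.195 ± 0.18, adjusted p = 8.95e-06). It also passed with only these 2 groups in the fit (1.18 ± 0.13, adjusted p = 2.24e-06). With both left out 2 members were higher and 20 lower. Of all 14485 genes 45.1% passed, with 3519 higher and 3013 lower. Of the interferon genes 4 of 9 rose in endothelial cells with all libraries, among them IRF9 by 2.03, and 6 of 10 without both. CD74, counted here with the white blood cell markers, was at 48.3 to 69.5 TPM in endothelial cells and at most 1.22 TPM on day 0, while PTPRC was at most 0.04 TPM. Whether this moves with PSME1 was not tested.

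Cardiomyocyte libraries showed a rise of PSME1 and PSME2 together with a fall of PSME3. PSME1 stood at 597 and 590 TPM in replicates 1 and 3, at 160 TPM in the library labelled cardiomyocyte replicate 2, and at 81.8 ± 5.0 TPM (n = 3) on day 0. PSME2 stood at 430, 110 and 560 TPM in replicates 1, 2 and 3 against 78.7 ± 1.7 TPM. PSME3 was at 105, 98.0 and 96.4 TPM in replicates 1, 2 and 3 against 288, 241 and 278 TPM on day 0, and here replicate 2 did not stand apart. With all libraries PSME1 rose by 2.81 ± 0.67 (adjusted p = 0.00328) and PSME2 by 2.60 ± 0.73 (adjusted p = 0.00946), while PSME3 fell by 1.30 (SE 0.14, adjusted p = 2.58e-06). Without the 2 libraries PSME1 was at 3.27 ± 0.20 (adjusted p = 2.41e-12), PSME2 at 3.08 ± 0.23 (adjusted p = 8.65e-11) and PSME3 at -1.17 ± 0.14 (adjusted p = 1.25e-07). PSME2 missed the threshold without cardiomyocyte replicate 3 (1.96, adjusted p = 0.052).

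The library labelled neural progenitor replicate 1, which carries the cardiac markers, had 536 TPM of PSME1 and 502 TPM of PSME2. Neural progenitor replicates 2 and 3 had 141 and 101 TPM of PSME1 and 89.6 and 102 TPM of PSME2. The 3 libraries with cardiac markers thus had 430 to 597 TPM of either gene, and the 3 with neural markers had 89.6 to 160 TPM. Markers of other cell types moved with this split. The 5 fibroblast markers summed to 1096, 755 and 1224 TPM in the libraries with cardiac markers, 15.3, 24.2 and 23.7 TPM in those with neural markers and 129 to 279 TPM on day 0. The 5 white blood cell markers summed to 23.8, 37.3 and 27.8 TPM and to 5.90, 6.85 and 2.97 TPM, with PTPRC at most 0.09 TPM in all 6. Their part in the levels of PSME1 and PSME2 was not tested. The summed TPM of PSME1 and PSME2 was 9.81 and 11.9 times that of PSME3 in cardiomyocyte replicates 1 and 3, and 2.75 times in replicate 2. It was 10.97, 1.87 and 1.93 times in neural progenitor replicates 1, 2 and 3, and 0.601 ± 0.076 times (n = 3) on day 0. PSMB8 had no counts in any of these 6 libraries, and PSMB9 was at 0.57 TPM in cardiomyocyte replicate 3 and listed at 0 in the other five. PSMB10 was present in all 6, at 25.7, 47.6 and 42.0 TPM in the libraries with cardiac markers and 41.2, 26.3 and 10.95 TPM in those with neural markers, which overlap. For PSMB8 a count of 0 allows up to 3 counts over the 3 cardiomyocyte libraries, or 0.176 CPM (counts relative to all counts), against 0.398 CPM on day 0.

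**Figure D4:**
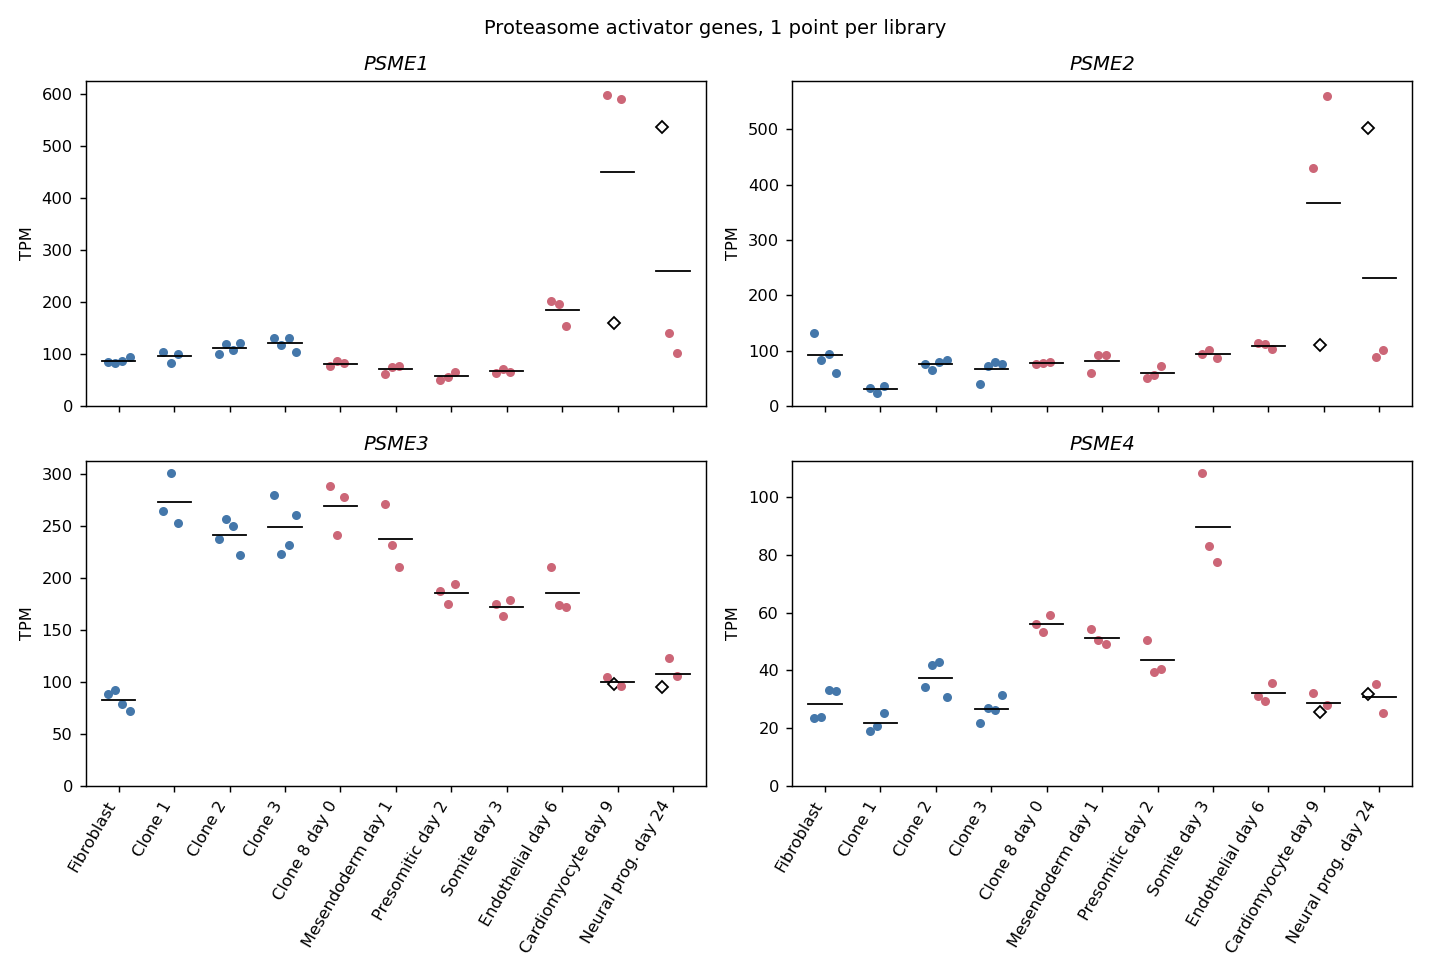
Level in TPM (vertical axes) of the activator genes PSME1 to PSME4 in every library, by group (horizontal axes). Bars are group means, blue marks fibroblasts and clones 1 to 3, red marks clone 8, and white diamonds mark the 2 libraries that go against their labels. PSME1 is near 597, 590 and 536 TPM in the 3 libraries with cardiac markers and 160 TPM or less in 3 libraries with neural markers, while PSME3 is near 100 TPM in all 6.

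Of 45 members 9 passed between cardiomyocytes and day 0 (41.7% of all genes), 4 higher and 5 lower. Beside PSME1 and PSME2, the chaperone genes PSMG4 (0.79, adjusted p = 0.0465) and PSMD9 (0.57, adjusted p = 0.0153) were higher. The lower ones were PSME3, PSMD11 (-1.27 ± 0.13, adjusted p = 9.17e-07), PSMD1 (-0.93, adjusted p = 0.0236), PSMD2, a base scaffold (-0.73, adjusted p = 0.00309), and PSME4 (-0.70, adjusted p = 0.0172). PSMD11 stood at 53.4, 81.7 and 39.9 TPM in replicates 1, 2 and 3 against 157, 154 and 159 TPM on day 0. PSMG4 missed the threshold when any library but cardiomyocyte replicate 2 was left out (0.44 to 0.82, adjusted p from 0.0997 to 0.303). PSMD9 missed it without day 0 replicate 2 or 3 or cardiomyocyte replicate 3 (0.49 to 0.53, adjusted p from 0.0604 to 0.0699), PSMD1 without day 0 replicate 1 (-0.94, adjusted p = 0.0523) or cardiomyocyte replicate 2 (-0.64, adjusted p = 0.0777), and PSME4 without cardiomyocyte replicate 2 (-0.49, adjusted p = 0.0637). With only cardiomyocytes and day 0 in the fit, PSMD9 (adjusted p = 0.0616), PSMG4 (0.144), PSMD1 (0.0793) and PSME4 (0.0801) missed it too. On TPM PSMD9 was at 0.35 (adjusted p = 0.184), and with no filter PSMG4 was at 0.73 (adjusted p = 0.0999).

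With both libraries left out 22 members passed (61.7% of all genes), 16 higher, when 30.3% of all genes were higher, and 6 lower. The 16 included 4 core alpha and 4 core beta genes. The 14 constitutive core genes summed to 5358 and 6124 TPM in cardiomyocyte replicates 1 and 3 and 4009 TPM in replicate 2. Day 0 was at 5291 to 5781 TPM, so that replicate 1 lay within its range. The base and lid genes summed to 3964 and 4103 TPM in replicates 1 and 3, below the 4807 to 5125 TPM of day 0. With all libraries the split depended on the scale, with 4 higher and 5 lower on counts and 3 higher and 15 lower on TPM. Of all 14248 genes 5940 passed on counts and 5602 on TPM. The test on TPM was not run without the 2 libraries. On TPM the members' median was -0.21 in place of 0.09, while that of all genes moved from 0.20 to -0.11. TAP2 fell by 2.57 with all libraries and was at -2.97 without both. Of the interferon genes 2 of 9 rose and 2 fell with all libraries, and 2 of 10 rose and 3 fell without both.

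Neural progenitors were lower than day 0 in most classes once the library with cardiac markers was left out. With all libraries 13 of 45 members passed (42.7% of all genes), PSME1 higher (1.84 ± 0.65, adjusted p = 0.0309) and 12 lower. They were led by PSME3 (-1.40 ± 0.14, adjusted p = 1.29e-06), PSMD11 (-1.26 ± 0.13, adjusted p = 1.07e-06), PSMD1 (-1.23 ± 0.31, adjusted p = 0.00475) and PSMA5 (-1.20 ± 0.33, adjusted p = 0.00822). With only neural progenitors and day 0 in the fit, the calls of PSMD1 (adjusted p = 0.0677), PSMA5 (0.075), PSMB5 (0.14), PSME4 (0.0599) and PSME1 (0.155) were lost, and PSME3 and PSMD11 still passed. Without the 2 libraries 37 of 45 members were lower and none higher, when 63.8% of all genes passed and 31.8% were lower. The median was then -1.12 over the members and 0 over all genes. All 14 constitutive core genes, all 8 lid genes and 8 of 9 base genes were lower, with PSMA5 at -1.79 ± 0.20 (adjusted p = 4.33e-08) and PSMB5 at -1.21 ± 0.18 (adjusted p = 5.09e-06). PSMB5, at 335, 252 and 304 TPM in replicates 1, 2 and 3 against 490, 521 and 457 TPM on day 0, also passed with all libraries (-0.77, adjusted p = 0.0317), a call lost without day 0 replicate 1 or 2 or neural progenitor replicate 2 or 3 (-0.79 to -0.58, adjusted p from 0.0636 to 0.125).

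The summed core in neural progenitors was 5452, 2905 and 3250 TPM in replicates 1, 2 and 3. PSME1 and PSME2 rested on replicate 1: without the 2 libraries PSME1 was at 0.21 ± 0.21 (adjusted p = 0.383) and PSME2 at -0.13 ± 0.25 (adjusted p = 0.678), against 1.75 ± 0.71 (adjusted p = 0.0569) with all libraries. Without neural progenitor replicate 1 alone PSME1 was at 0.12 (adjusted p = 0.849) and 37 members passed, and PSME1 also missed the threshold without any day 0 library (1.78 to 1.85, adjusted p from 0.0824 to 0.0909). PSME2 passed without neural progenitor replicate 2 (2.19, adjusted p = 0.0202) or replicate 3 (2.15, adjusted p = 0.0264) and by DESeq2 (1.76, adjusted p = 0.0245). Replicate 3 was the shallowest library, with 1845333 counts. Among the partners NFE2L3 fell by 2.84 with all libraries (adjusted p = 0.00234) and was at -2.33 without both (adjusted p = 1.14e-10). ZFAND5, a factor that stimulates the proteasome, rose by 0.87 (adjusted p = 0.0206) and by 0.40 without both (adjusted p = 0.00893). The comparisons of endothelial, cardiomyocyte and neural progenitor cells share the day 0 libraries.

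**Figure D5:**
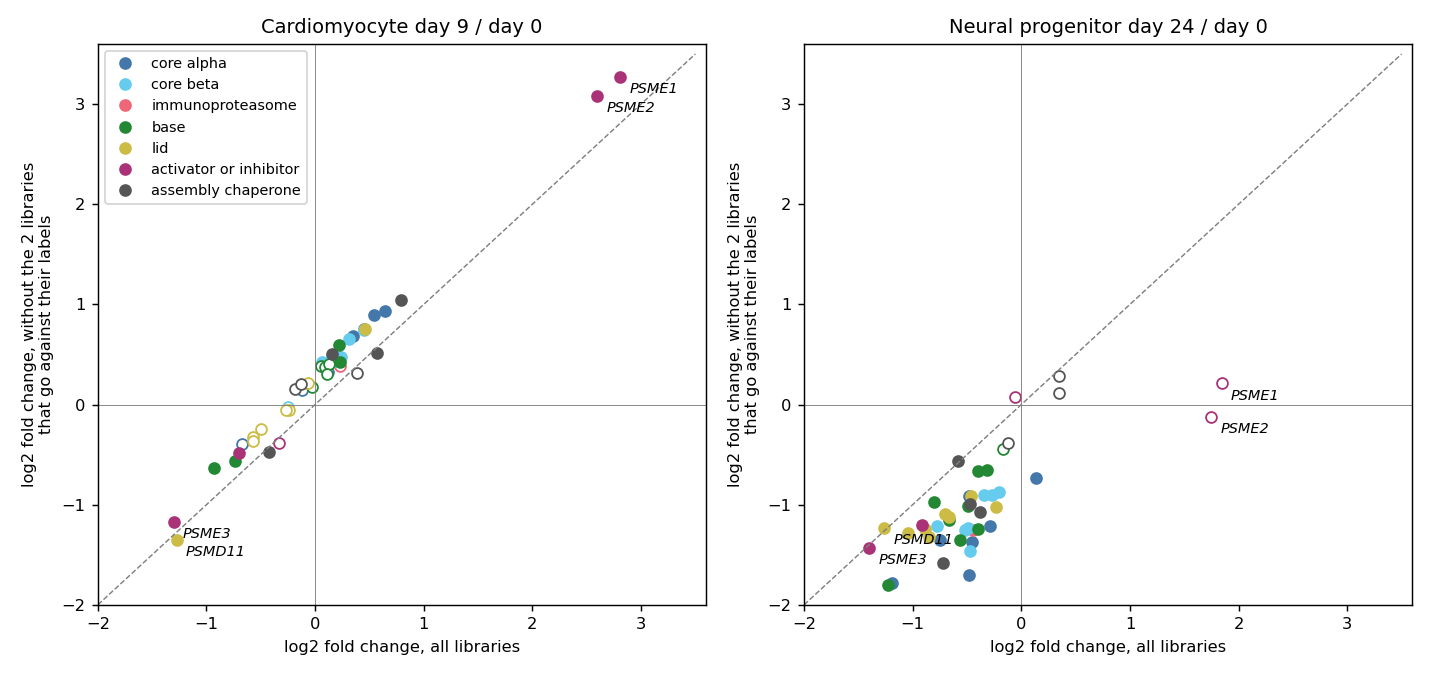
Log2 fold change of the tested proteasome genes (PSMB8 left out) against day 0 with all libraries (horizontal axes) and without the 2 libraries that go against their labels (vertical axes), for cardiomyocytes and neural progenitors. Colours give the role, filled points passed in the fit without the 2 libraries, and the dashed line marks equal values. In neural progenitors PSME1 drops from 1.84 to 0.21 and PSME2 from 1.75 to -0.13, and the core, base and lid genes move down.

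PSME3 and PSMD11 had negative values in the comparisons of all 3 later lineages with day 0, and so did PSME4. Such values were common among the members. Of the 17 base and lid genes, 17 were negative in endothelial cells, 10 in cardiomyocytes and 17 in neural progenitors with all libraries. Of all 14248 genes 6888, 6227 and 6243 were negative in these comparisons. Only 2, 3 and 7 of the 17 passed as lower. Without the 2 libraries that go against their labels 17, 8 and 17 were negative, and of all 14485 genes 7019, 7416 and 7194. PSME3 ran from 269 ± 25 TPM on day 0 through 238 ± 31 on day 1, 186 ± 10 on day 2 and 172 ± 8 on day 3 (n = 3 each), and to 186 ± 22 TPM in endothelial cells, 99.7 ± 4.4 in cardiomyocytes and 108 ± 14 in neural progenitors. Fibroblasts, at 82.5 ± 9.1 TPM (n = 4), lay below both without overlapping. Day 0 and day 1 overlapped in PSME3, as did day 2, day 3 and endothelial cells.

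Over the 11 groups fibroblasts had the lowest mean TPM for 33 of the 46 genes other than PSMA8 and PSMB11. The highest group was mesendoderm of day 1 for 11 genes, clone 3 for 8, clone 8 on day 0 for 8 and cardiomyocytes for 7. The same ranking was not computed over all genes, so whether these counts are particular to the members was not tested. The 11 groups also span the 2 sets of libraries that differ in depth and were fitted apart. These means include the 2 libraries that go against their labels, and the order depends on them. PSMA2, highest on day 1 by mean (824 TPM), was at 823 and 983 TPM in cardiomyocyte replicates 1 and 3. It was at 496 TPM in replicate 2. PSMA8 and PSMB11 were absent or nearly so, with at most 3 summed counts in a group and at most 0.83 TPM in a library. Among the constitutive core genes, group means in TPM differed 3.67-fold in fibroblasts, from PSMB3 at 63.6 to PSMB7 at 233 TPM. In clone 1 they differed 12.2-fold, from PSMB2 at 49.5 to PSMA3 at 602 TPM, and on day 0 of clone 8 they differed 4.73-fold, from PSMB2 at 138 to PSMA2 at 653 TPM.

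The 48 genes lie on 14 chromosomes of Sscrofa11.1, 10 of them on chromosome 7, by their RefSeq positions. PSMB8 (chromosome 7, 25058456 to 25061666) and PSMB9 (chromosome 7, 25072133 to 25077508) flank TAP1, with 10466 bases between them. PSMB10 lies apart on chromosome 6 (28544910 to 28547609). PSME2 (chromosome 7, 75154570 to 75157871) and PSME1 (chromosome 7, 75161830 to 75164531) are 3958 bases apart with no annotated gene between, and PSMB11 and PSMB5 are 7847 bases apart. PSME3 is on chromosome 12, PSME4 on 3 and PSMF1, like PSMA7, on 17. Of the 48 genes 10 overlap another annotated gene, among them PSME1 (EMC9), PSMA7 (LSM14B), PSMC1 (NRDE2), PSMD1 (HTR2B), PSMD14 (TBR1) and PSMD10 (ATG4A), and as the use of strand in the counting is not given, reads of such pairs may be shared and their values are uncertain.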

How the data were processed

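RNA was purified from the cells with a QIAGEN kit for ligation-mediated library preparation, per the labels' protocols. The build Sscrofa11.1 and the tools RSEM 1.2.3, Bowtie 1.2.3 and bcl2fastq are named in the submitters' processing notes. What the authors deposited are expected counts per gene and TPM, in tables with 20683 genes and 36 libraries.

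Rounded expected counts went into edgeR 4.0.16 (R 4.3.3, quasi-likelihood test), after TMM scaling and filterByExpr (minimum count 10). The models were fitted to 15 libraries and 14660 genes (fibroblasts, clones 1 to 3) and to 21 libraries and 14248 genes (clone 8). P-values were adjusted by Benjamini-Hochberg over all genes tested, with a threshold of 0.05. The SE is the size of the log2 fold change over the square root of F. The code was tested on simulated data. No pair of libraries within a group was identical (42 pairs, lowest chi-square per degree of freedom 3.43), and each library counted as 1 replicate. Pairs across groups were not checked.

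Groups and replicate numbers came from the labels. Correlations of same-numbered libraries were 0.18 to 0.51 for day 2 against day 1, the only comparison where the number was taken as a pairing. Even there only replicate 1 correlated best with its own number. For day 1 against day 0 the correlations were 0.088 to 0.323. The tests do not use the number, except where a block on it is named. Such a block was fitted over all groups of a model at once, and no fit paired 2 groups alone. Members, lists and tests were chosen with earlier results of these data known, and POMP and DDI2 of the partner list were not analysed here. Some genes counted in the lists are not reported by name. Named were the catalytic and activator genes, the highest and lowest passing member of each comparison, and others chosen after their values were seen. Alternatives were DESeq2 1.42.0, RLE scaling, no filter, only the groups compared, a replicate block, limma 3.58.1 on log2(TPM + 1) and log2(TPM + 0.1), TMM-rescaled TPM, each pair of fibroblast libraries alone and leaving out libraries. Only the fits without the 2 libraries that go against their labels were, outside cardiomyocytes and neural progenitors, added after seeing the data. Gene positions came from RefSeq, where all 48 genes matched. Intervals and floors cover counting error only.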

Additional observations from a re-analysis of the deposited data

Results flagged for a closer look

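In groups of 4 libraries, 3 members had 1 library far from the other three, with the gap to the nearest of them above Dixon's critical value. PSMA5 was at 409.82 TPM in clone 3 replicate 1 and at 529 to 537 TPM in the rest of that clone. PSMD8 was lowest in the same library, at 79.17 TPM against 110 to 115 TPM. PSMD3 was at 101.34 TPM in clone 2 replicate 3 and at 80.3 to 83.2 TPM in its other libraries. Over 24 named genes 72 groups were examined, and chance alone flags about 5% of groups.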

How the results depend on the processing

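Clones against fibroblasts gave 33 to 35 members passing when a library was left out. The ranges were 0 to 5 for clones 1 and 2, 1 to 4 for clones 1 and 3, 1 to 3 for clones 2 and 3, 1 in every case for day 1, 1 to 2 for day 2, 1 to 4 for day 3, 2 to 3 for endothelial cells, 7 to 10 for cardiomyocytes and 9 to 37 for neural progenitors. For neural progenitors all genes passing then ran from 4663 to 7519. Without the 2 libraries that go against their labels, 13 members passed for day 1, 8 for day 2, 24 for day 3, 22 for endothelial cells, 22 for cardiomyocytes and 37 for neural progenitors. Of all genes 37.4, 23.9, 48.4, 45.1, 61.7 and 63.8% passed without these libraries. PSME2 in neural progenitors turned from 1.75 to -0.126 without these 2 libraries. It ran from -0.188 (without neural progenitor replicate 1) to 2.186 (without replicate 2) when 1 library was left out. With only the groups compared in the fit, counts were 8 for clones 1 and 2, 8 for clones 2 and 3, 5 for day 1, 5 for day 2, 23 for day 3, 29 for endothelial cells, 5 for cardiomyocytes and 4 for neural progenitors. Of all genes 1676, 2561, 4752, 2165, 6421, 7704, 3764 and 3476 passed in these fits, in the same order. The main fits had 1365, 618, 1808, 1053, 3374, 2752, 5940 and 6087. Limma on TPM gave 5 for clones 1 and 2 and 5 for day 2 with either pseudocount, 19 (plus 1) and 18 (plus 0.1) for endothelial cells, 18 for cardiomyocytes and 22 for neural progenitors with either. With log2(TPM + 1), 1792, 1020, 3112, 5602 and 5957 of all genes passed, in the same order. DESeq2 gave 6 for clones 1 and 2 and 9 for endothelial cells, and no filter gave 1 for day 1. All genes passing numbered 2247, 3624 and 1553 there. Apart from the fits without libraries, the cause of these shifts was not tested.

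With the replicate number as a block, 1 member passed for clones 1 and 2, 2 for clones 1 and 3, 1 for clones 2 and 3, 1 for day 1 and 3 for day 3. All genes passing numbered 953, 724, 472, 1761 and 3281. The other counts of members were 36 for clones against fibroblasts, 2 for day 2, 5 for endothelial cells, 9 for cardiomyocytes and 11 for neural progenitors. All genes passing numbered 10648, 1006, 2712, 5541 and 5728 in these. Outside day 2 the number was not taken as a pairing, and correlations of same-numbered libraries ran from -0.166 to 0.323. Of all comparisons, day 2 included, only that of endothelial cells had every library correlate best with its own number (0.021 to 0.101).

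Rescaling TPM by TMM factors moved the summed core to 4259 TPM in clone 2, 5230 on day 0, 5475 on day 2 and 4175 on day 3. The shallowest library is of clone 8, with 1845333 counts, and PSMB8 in clone 8 rests on at most 83 counts in a group. Of the values of named members under an alternative, 720 kept their direction and side of the threshold, 118 fell short of it, 10 newly passed it and 2 reversed.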
